A study of Mus musculus with 6 samples.

Results

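The 10 genes described here are Aif1, Csf1r, Cx3cr1, P2ry12, Tmem119, C1qa, C1qb, C1qc, Trem2 and Tyrobp, a set that marks microglia and includes the genes of the complement protein C1q. They were taken by gene symbol from mRNA-sequencing tables of whole telencephalon that hold 22651 genes, and all 10 had enough counts to be among the 13969 genes tested. The samples came from 3 WT mice (TSC1 flox/flox;Emx1 +/+) and 3 TSC1 mice (TSC1 flox/flox;Emx1-cre/+) at postnatal day 0. All 6 therefore carried floxed Tsc1 alleles, and the WT mice were littermates without Cre. The Cre recombinase is active in the embryonic dorsal cortex and removes part of Tsc1, so a TSC1 sample mixed cells with and without the deletion. The comparison asks how the mRNA levels of these genes in the newborn telencephalon differed between TSC1 and WT.

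Microglia are the resident macrophages of the brain. They descend from yolk sac progenitors and not from the cortical progenitors in which Emx1-Cre acts, they depend on the receptor Csf1r and its ligands Csf1 and Il34 for survival, and they engulf dying cells and synaptic material during development. C1q, the starting molecule of the classical complement pathway, is assembled from the chains encoded by C1qa, C1qb and C1qc, and in the brain microglia are its main source. Macrophages at the borders of the brain express many of the same genes, so most of the 10 genes do not mark microglia alone. In bulk tissue, fewer cells of a type and less RNA per cell cannot be told apart.

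In the GRCm38/mm10 annotation (GENCODE M21), C1qb (chr4:136880129-136886187), C1qc (chr4:136889804-136893065) and C1qa (chr4:136895917-136898803) lie side by side on the minus strand within 18.7 kb, with gaps of 3616 and 2851 bases between them. The other genes lie elsewhere in the genome, with Cx3cr1 at chr9:119901616-120069879, P2ry12 at chr3:59216272-59262871, Tmem119 at chr5:113793729-113800516 and Tyrobp at chr7:30413760-30417585. Aif1 (chr17:35170991-35176068) and Trem2 (chr17:48346401-48354147) share a chromosome. RefSeq promoter windows of 250 bases before the start were at hand for 6 of the 10 genes. The letters GAGGAA, the core of sites bound by the myeloid transcription factor PU.1, were found on either strand (TTCCTC on the reverse) in 4 of these 6 windows, those of C1qb, C1qc, Trem2 and Aif1, and not in those of Cx3cr1 and P2ry12. Of all 32851 windows of that length, 7639 (23.3%) held the same letters. The windows of C1qb and Trem2 are shown because the letters lie nearest to the start in a C1q gene and a receptor gene, 30 and 40 bases before it. The first is chr4:136886201-136886450 on the minus strand and the second chr17:48346151-48346400 on the plus strand (GRCm38.p6), both written in the direction of the gene with the matched letters in capitals.
C1qb: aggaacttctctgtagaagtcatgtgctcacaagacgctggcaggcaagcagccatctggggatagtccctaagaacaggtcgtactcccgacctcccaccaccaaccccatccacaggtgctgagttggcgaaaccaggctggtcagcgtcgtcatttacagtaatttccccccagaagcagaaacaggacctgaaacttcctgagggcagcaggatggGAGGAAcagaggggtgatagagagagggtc
Trem2: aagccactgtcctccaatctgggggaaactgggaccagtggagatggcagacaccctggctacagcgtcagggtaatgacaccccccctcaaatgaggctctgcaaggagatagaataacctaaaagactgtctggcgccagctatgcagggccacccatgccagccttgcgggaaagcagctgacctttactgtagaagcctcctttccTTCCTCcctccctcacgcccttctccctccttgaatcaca

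The total expected count was between 14119365 and 17772865 in the 6 samples, and 3 counts corresponded to between 0.169 and 0.212 CPM (counts scaled by the sample total). Tsc1 was at 50.2, 32.0 and 28.4 TPM (transcript abundance corrected for length and depth) in WT replicates 1, 2 and 3 and at 27.1, 21.7 and 22.4 TPM in the TSC1 replicates. All TSC1 samples were below all WT samples for this gene, with a log2 fold change of -0.66 and an adjusted p of 0.09998 (edgeR), and it passed the test with DESeq2 (adjusted p = 0.00319). Without WT replicate 1 the log2 fold change of Tsc1 was -0.40. Tubb3, a neuron marker that a telencephalon should hold, was at 4068 TPM or more in every sample. Ttr, a choroid plexus gene, was between 1142 and 2411 TPM in WT and between 23.9 and 842.7 TPM in TSC1. None of the 7 choroid plexus markers passed the test, all had lower values in TSC1, and their summed level was between 1179 and 2484 TPM in WT and between 33.0 and 870.5 TPM in TSC1, and the part of this difference in the results below was not tested.

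None of the 10 genes passed the test between TSC1 and WT (edgeR, Benjamini-Hochberg adjusted p below 0.05), where 1.52% of all genes tested did (212 of 13969). DESeq2 called none of them either, against 4.64% of the genes it tested. At an unadjusted p below 0.05, Csf1r, Cx3cr1 and P2ry12 were lower in TSC1, 3 of 10 against 8.93% of all genes, and none was higher, against 9.04%. The same 3 genes were the ones whose TSC1 samples all lay below the WT samples in normalised CPM, against 11.7% of all genes, and no member lay wholly above, against 10.9%. A rerun of the study's own kind of test, which sets each gene's difference against differences under permuted sample labels, called Aif1 and P2ry12, both lower in TSC1, where it called 7.28% of all genes. This rerun calls a gene at a combined p below 0.05 that is not adjusted over genes, together with a fold cutoff. Its counts are therefore at a looser threshold than the edgeR and DESeq2 calls at adjusted p below 0.05. Its fold cutoff, estimated from the permuted samples, was 0.4956 on the log2 scale, and with the lower cutoff stated in the methods, a run added after the data were seen, it also called Cx3cr1, 3 of 10 against 9.79% of all genes. By sign alone, 6 of the 10 genes had a lower value in TSC1 and 4 a higher value (Tmem119, C1qa, C1qb and C1qc), and the median log2 fold change was -0.20 against -0.0027 for all genes tested.

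**Figure D1:**
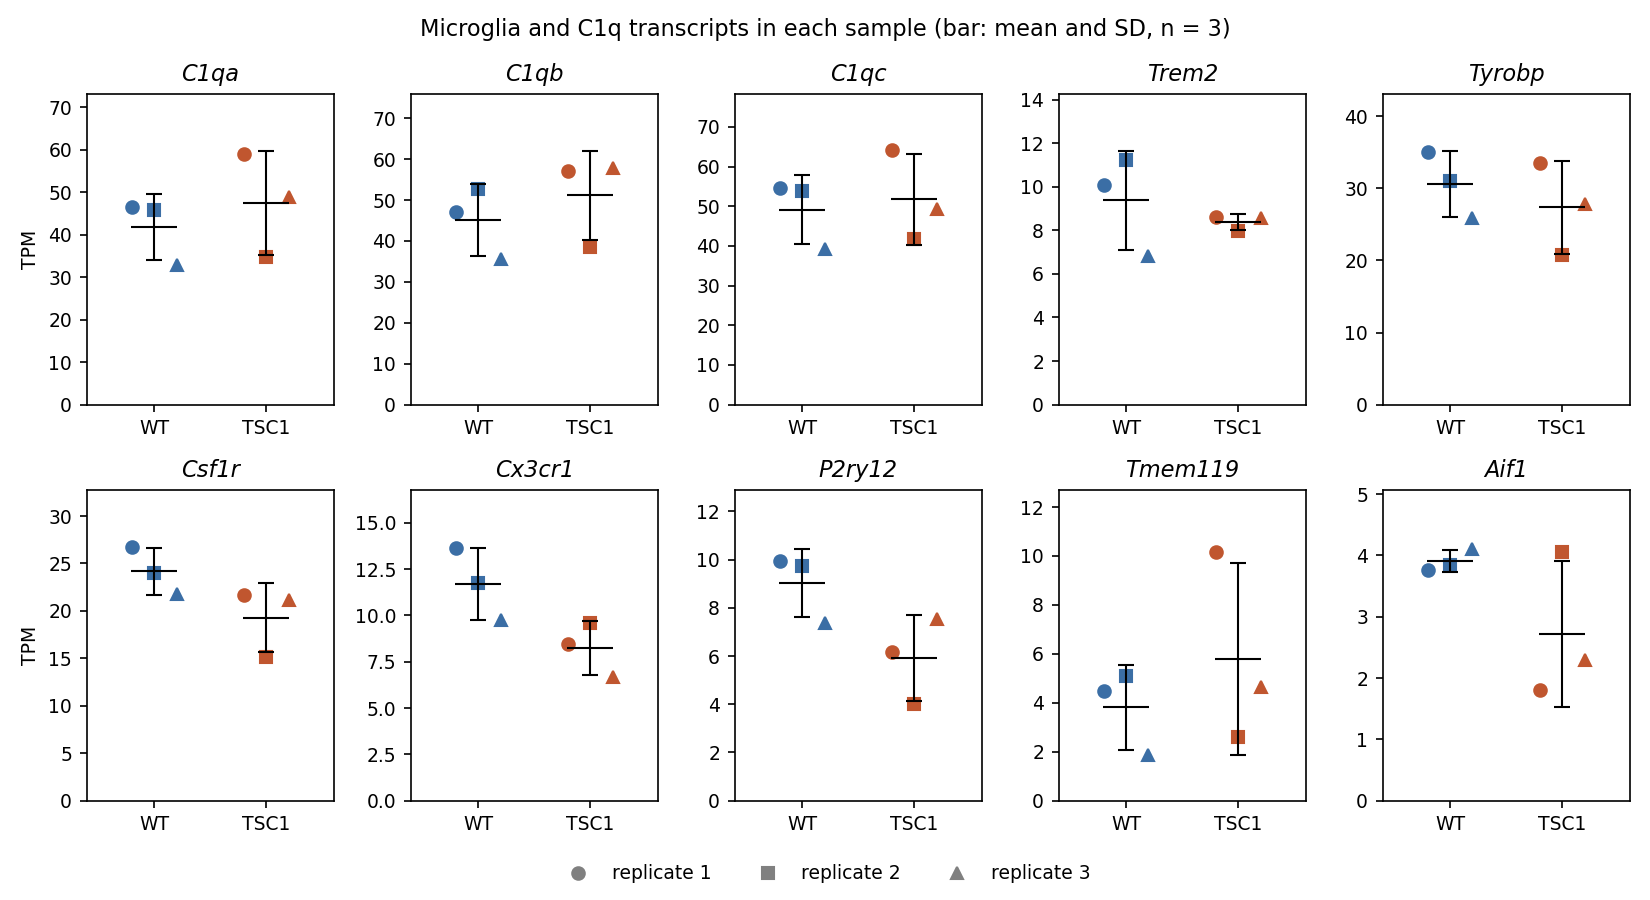
Level of each of the 10 genes (TPM, linear axis from 0) in the 3 WT and 3 TSC1 samples, with marker shape for the replicate number and bars for the mean and SD. The TSC1 values of Csf1r and Cx3cr1 lie below all WT values, those of P2ry12 touch the WT range (7.55 against 7.39 TPM), and the groups overlap for the other genes.

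The C1q chains were the most abundant of the 10 transcripts, and TSC1 and WT overlapped for each of them. C1qa, which encodes the A chain, was at 46.6, 45.9 and 32.8 TPM in WT replicates 1, 2 and 3 and at 58.9, 34.6 and 48.8 TPM in TSC1 replicates 1, 2 and 3. C1qb was at 47.1, 52.6 and 35.5 TPM in WT and at 57.2, 38.6 and 57.7 TPM in TSC1, in the same order of replicates. C1qc stood at 54.6, 53.8 and 39.1 TPM in WT against 64.1, 41.7 and 49.5 TPM in TSC1. In all 3 genes WT replicate 3 and TSC1 replicate 2 were the lowest of their groups, and the groups overlapped. The means were 41.7 ± 7.77 (SD, n = 3) against 47.4 ± 12.2 TPM for C1qa, 45.1 ± 8.75 against 51.2 ± 10.9 TPM for C1qb, and 49.2 ± 8.70 against 51.8 ± 11.4 TPM for C1qc. The log2 fold changes were 0.15 (95% interval -0.29 to 0.58, adjusted p = 0.722, edgeR) for C1qa and 0.15 (-0.27 to 0.56, adjusted p = 0.711) for C1qb. For C1qc the log2 fold change was 0.04 (-0.34 to 0.42, adjusted p = 0.935), and it turned to -0.13 without TSC1 replicate 1. Within a sample the chains kept close proportions, with C1qb at 1.08 ± 0.07 (SD, n = 3) times C1qa in WT and at 1.09 ± 0.11 times in TSC1, and C1qc at 1.18 ± 0.01 times C1qa in WT and at 1.10 ± 0.10 times in TSC1, all on the TPM scale.

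Trem2, a lipid-sensing receptor, and Tyrobp, the adapter through which it signals, had lower means in TSC1, with groups that overlapped. Trem2 was at 10.1, 11.2 and 6.82 TPM in WT replicates 1, 2 and 3 and at 8.63, 7.97 and 8.58 TPM in the TSC1 replicates. The 3 TSC1 values lay inside the WT range, and the log2 fold change was -0.19 (95% interval -0.67 to 0.29, adjusted p = 0.672, edgeR). Tyrobp was at 35.0, 31.0 and 25.9 TPM in WT and at 33.5, 20.7 and 27.8 TPM in TSC1, a log2 fold change of -0.21 (-0.65 to 0.24, adjusted p = 0.617). Fcer1g, the Fc receptor gamma chain and an adapter of the same kind, was at 25.8, 22.4 and 22.9 TPM in WT and at 20.6, 15.6 and 15.0 TPM in TSC1. All its TSC1 samples were below all its WT samples, with a log2 fold change of -0.51 that did not pass the test (adjusted p = 0.171). Of the 15 listed genes that act with these adapters or downstream of them, 12 were tested, 3 with a higher and 9 with a lower value in TSC1, none passed, and the median log2 fold change was -0.10. Among them Lat2, an adapter of immune receptors, had a log2 fold change of 0.38 (adjusted p = 0.610). The kinase gene Syk, which binds phosphorylated Tyrobp, was between 2.94 and 4.03 TPM in the 6 samples. Syk is named here after its value was seen.

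The receptor genes Csf1r, Cx3cr1 and P2ry12 had the lowest unadjusted p values of the 10 and lower means in TSC1, though none passed the adjusted test. Csf1r, the receptor for Csf1 and Il34, was at 26.8, 24.0 and 21.8 TPM in WT replicates 1, 2 and 3 and at 21.7, 15.1 and 21.1 TPM in the TSC1 replicates. TSC1 replicate 2 was the lowest, and the highest TSC1 sample lay just under the lowest WT sample. Its mean was 24.2 ± 2.50 (SD, n = 3) TPM in WT and 19.3 ± 3.64 TPM in TSC1, a log2 fold change of -0.35 (95% interval -0.66 to -0.04, unadjusted p = 0.0302, adjusted p = 0.219, edgeR). Cx3cr1, the receptor for the neuronal chemokine Cx3cl1, was at 13.6, 11.8 and 9.74 TPM in WT and at 8.48, 9.60 and 6.69 TPM in TSC1. Here WT replicate 3 and TSC1 replicate 2 stood next to each other at the border between the groups, and TSC1 replicate 3 was the lowest. The means were 11.7 ± 1.95 and 8.26 ± 1.47 TPM, with a log2 fold change of -0.53 (-0.89 to -0.17, unadjusted p = 0.00850, adjusted p = 0.129). P2ry12, the purinergic receptor by which microglial processes sense released ATP and ADP, was at 9.94, 9.73 and 7.39 TPM in WT and at 6.18, 4.02 and 7.55 TPM in TSC1. In normalised CPM its groups did not overlap, but by a narrow margin (6.36 in the lowest WT and 6.29 in the highest TSC1 sample), and in TPM TSC1 replicate 3 passed WT replicate 3. The means were 9.02 ± 1.42 and 5.92 ± 1.78 TPM, with a log2 fold change of -0.63 (-1.14 to -0.12, unadjusted p = 0.0210, adjusted p = 0.187).

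Each of these 3 genes shares exonic sequence with another annotated gene, and the library kit kept no strand, so reads from the shared stretches cannot be told apart. Csf1r overlaps Hmgxb3 on the opposite strand, which was between 21.1 and 32.4 TPM, and P2ry12 lies within Med12l, which was between 8.02 and 9.10 TPM over the 6 samples. Cx3cr1 overlaps Gm33858, an antisense RNA that was not analysed here. The part of this overlap in the values was not tested.

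The ligands of these receptors did not pass the test either. Csf1 was at 11.98, 10.7 and 7.99 TPM in WT replicates 1, 2 and 3 and at 8.26, 7.13 and 6.46 TPM in the TSC1 replicates, with a log2 fold change of -0.49 (adjusted p = 0.150, edgeR). Il34, the other ligand of Csf1r, was at 8.05, 9.87 and 5.29 TPM in WT and at 8.69, 9.07 and 8.82 TPM in TSC1, a log2 fold change of 0.15 (adjusted p = 0.762). Cx3cl1, made by neurons, was at 59.5, 56.3 and 59.4 TPM in WT and at 45.3, 47.6 and 62.6 TPM in TSC1, a log2 fold change of -0.20 (adjusted p = 0.451). TSC1 replicates 1 and 2 were below all WT samples for Cx3cl1 and TSC1 replicate 3 was above them, and without TSC1 replicate 3 the log2 fold change was -0.37 with an adjusted p of 0.0410. Tgfb1, a growth factor needed for the microglial program, had a log2 fold change of -0.43 (adjusted p = 0.396). Of the 8 ligand and survival factor genes tested, 3 had a higher and 5 a lower value in TSC1, and the median log2 fold change was -0.15.

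Tmem119, a surface protein used to tell microglia from other macrophages, and Aif1, which encodes the calcium-binding protein Iba1, had the lowest levels and the widest intervals. Tmem119 was at 4.50, 5.08 and 1.85 TPM in WT replicates 1, 2 and 3 and at 10.2, 2.60 and 4.64 TPM in the TSC1 replicates, a 5.50-fold range over the 6 samples. TSC1 replicate 1 was the highest by far and WT replicate 3 the lowest, and the log2 fold change of 0.56 (95% interval -0.51 to 1.63, adjusted p = 0.575, edgeR) became -0.085 without TSC1 replicate 1. Aif1 was at 3.76, 3.85 and 4.10 TPM in WT and at 1.81, 4.06 and 2.29 TPM in TSC1. TSC1 replicates 1 and 3 were below the WT samples and TSC1 replicate 2 was among them. Aif1 rested on 18, 21 and 18 expected counts in WT and on 8, 17 and 11 in TSC1, and its log2 fold change was -0.56 (-1.34 to 0.21, adjusted p = 0.429). A difference of that size did not pass the edgeR test at this depth.

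**Figure D2:**
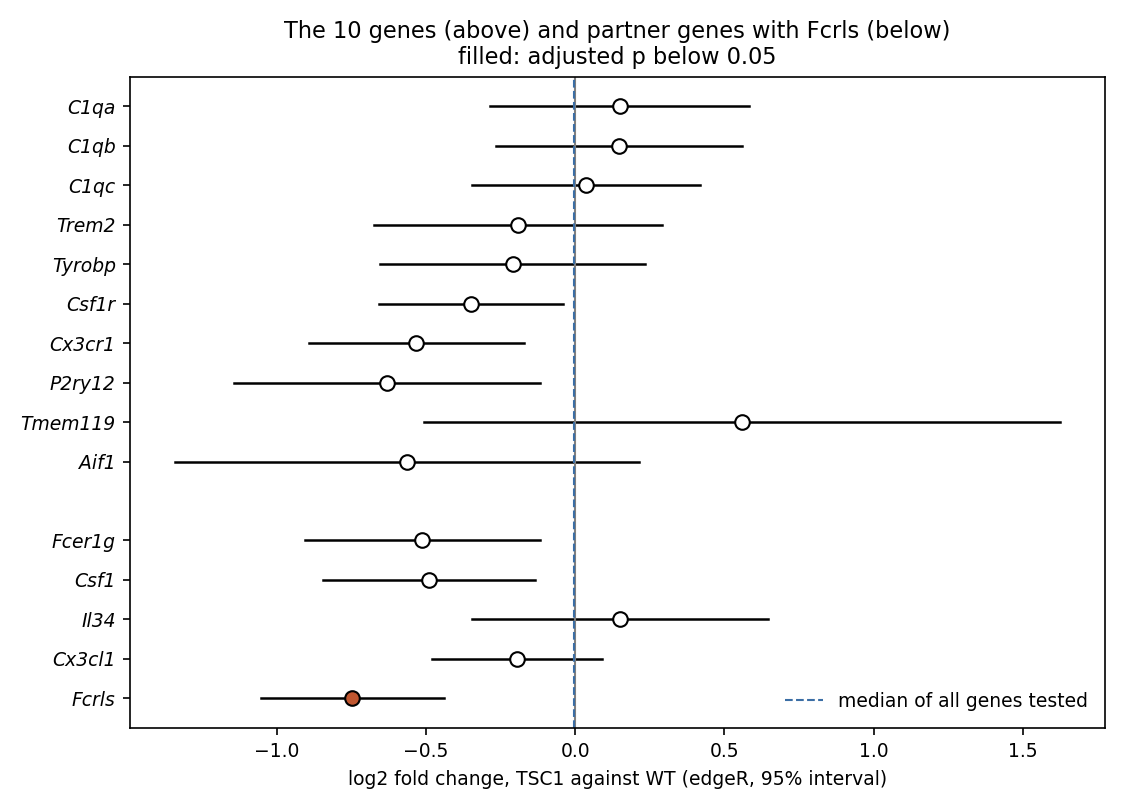
Log2 fold change of TSC1 against WT (edgeR) with its 95% interval for the 10 genes (upper block) and for Fcer1g, the ligands Csf1, Il34 and Cx3cl1, and Fcrls (lower block). The intervals of Csf1r, Cx3cr1 and P2ry12 lie below 0, as do those of Fcer1g, Csf1 and Fcrls. Only Fcrls, at -0.75, has an adjusted p below 0.05 (filled point).

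Ordered by mean TPM over the 6 samples, C1qc (50.5 ± 9.18, SD, n = 6), C1qb (48.1 ± 9.43) and C1qa (44.6 ± 9.67) came first, followed by Tyrobp (29.0 ± 5.29) and Csf1r (21.7 ± 3.86). Cx3cr1 (9.98 ± 2.44), Trem2 (8.88 ± 1.56), P2ry12 (7.47 ± 2.23), Tmem119 (4.81 ± 2.92) and Aif1 (3.31 ± 0.997) formed the lower end. Csf1r and Cx3cr1 were the only neighbours in this order whose ranges over the samples did not overlap. The genes also moved together from sample to sample within a group. WT replicate 3 was the lowest WT sample for 9 of the 10 genes, against 44.5% of all genes tested, and TSC1 replicate 2 the lowest TSC1 sample for 8 of the 10, against 34.3%. Aif1 was the exception in both groups, and Cx3cr1 was the other exception in TSC1. The 9 border macrophage markers tested were lowest in the same samples, 9 of 9 in each group. Markers of other cell types shared part of this pattern. WT replicate 3 was the lowest WT sample for 9 of 9 endothelial, 6 of 7 pericyte, 7 of 8 oligodendrocyte lineage and 5 of 8 neuron markers. TSC1 replicate 2 was the lowest TSC1 sample for 6 of 9, 4 of 7, 3 of 8 and 1 of 8 of them.

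The summed level of the 10 genes was close in the groups, with 228.6 ± 37.9 (SD, n = 3) for WT and 228.1 ± 46.1 for TSC1 on the TPM scale, while the share of its parts differed. The following sums and ratios were formed after the values of the single genes had been seen, so they are a description with no test. Together the C1q chains were at 136.0 ± 24.8 TPM in WT and 150.4 ± 33.0 TPM in TSC1, while Csf1r, Cx3cr1 and P2ry12 together were at 44.9 ± 5.74 TPM in WT and 33.5 ± 4.14 TPM in TSC1. The C1q sum was 3.02 ± 0.30 times the receptor sum in WT (2.76 to 3.35) and 4.46 ± 0.48 times in TSC1 (4.001 to 4.96). These ratios did not overlap between the groups, nor did the receptor sum alone, whose genes were grouped after their lower values in TSC1 were seen, while the C1q sum alone overlapped. As a share of the 10 genes, the C1q chains took 59.4 ± 1.63% in WT (58.1 to 61.2%) and 65.8 ± 1.34% in TSC1 (64.2 to 66.6%). Against Tyrobp, a gene outside both sums, the C1q sum was 4.15 to 4.91 times as high in WT and 5.39 to 5.60 times in TSC1. Tyrobp itself had a lower mean in TSC1 and the C1q chains higher means, so a higher ratio in TSC1 follows from those values. Trem2 was 0.304 ± 0.05 times Tyrobp in WT and 0.317 ± 0.06 times in TSC1, with overlap.

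**Figure D3:**
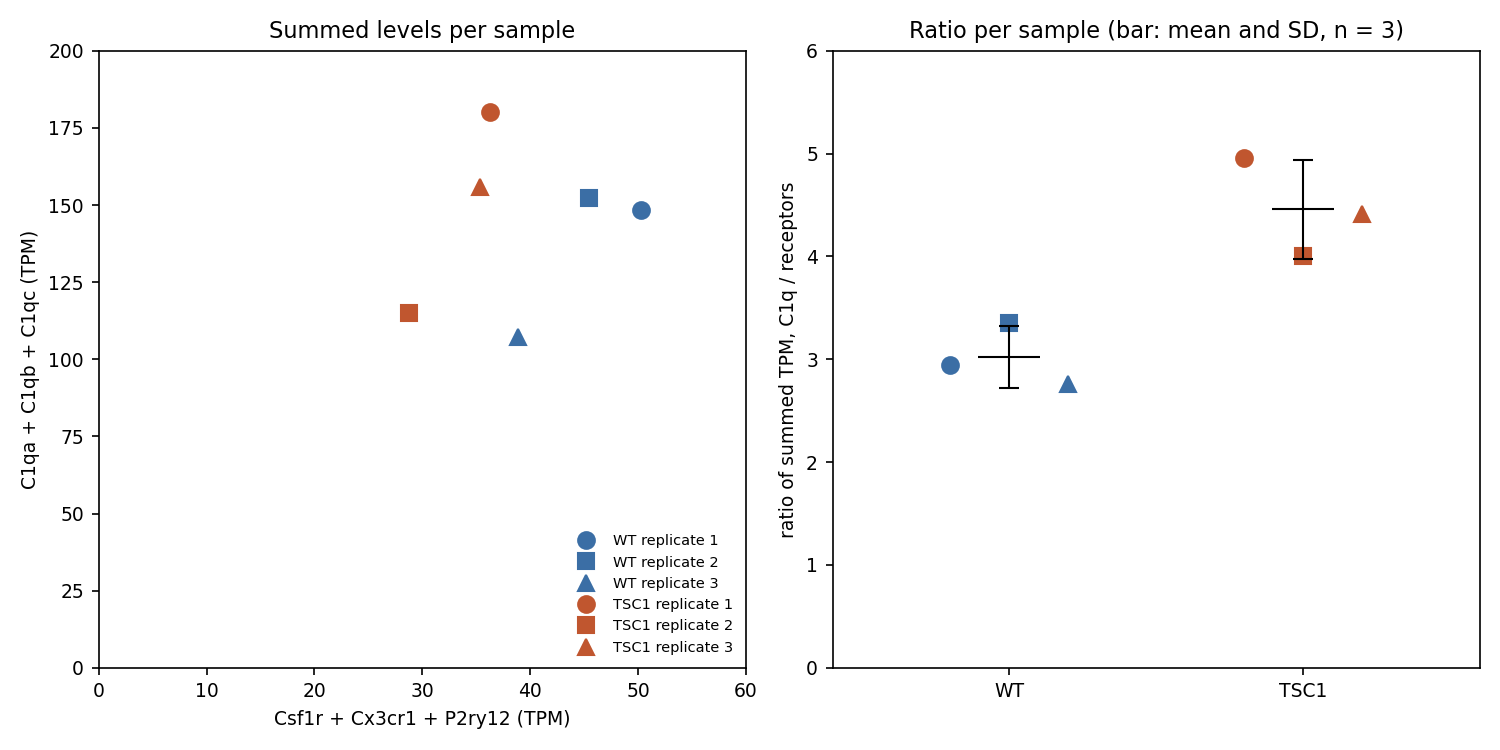
Left, summed TPM of C1qa, C1qb and C1qc against summed TPM of Csf1r, Cx3cr1 and P2ry12 in each sample; right, the ratio of the sums, with bars for the mean and SD of 3 samples. The ratio is between 2.76 and 3.35 in WT and between 4.001 and 4.96 in TSC1.

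The genes beyond the 10 that are enriched in microglia included 1 that passed the test, Fcrls, which was lower in TSC1. Of 22 such genes analysed, 19 were tested, 16 with a lower and 3 with a higher value in TSC1, and their median log2 fold change was -0.27. Fcrls, an Fc receptor-like gene enriched in microglia, was at 21.3, 17.6 and 16.7 TPM in WT replicates 1, 2 and 3 and at 10.7, 10.7 and 12.3 TPM in the TSC1 replicates. Every TSC1 sample was below every WT sample, and Fcrls fell with a log2 fold change of -0.75 (95% interval -1.05 to -0.44, adjusted p = 0.0391, edgeR). That call was lost without WT replicate 2, WT replicate 3, TSC1 replicate 1 or TSC1 replicate 2 (adjusted p between 0.112 and 0.167). Fcgr1, the high-affinity Fc gamma receptor, had a log2 fold change of -0.72 (adjusted p = 0.282), and its groups did not overlap.

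Of 8 transcription factor genes with a role in myeloid cells, 4 had higher and 4 lower values in TSC1, and the median log2 fold change was -0.01. Mef2c rose (log2 fold change 0.40, adjusted p = 0.0433, edgeR), but at 497.3 to 725.0 TPM it was far above the microglial genes, and cortical neurons are known to express it strongly. Mef2c lost its call when any 1 sample other than TSC1 replicate 3 was left out (adjusted p between 0.0551 and 0.203), and also under the permutation-based method at its higher cutoff. Ikzf1, a lymphoid and myeloid factor that is also present in neural progenitors, was at 5.98, 6.80 and 7.20 TPM in WT replicates 1, 2 and 3 and at 1.55, 1.24 and 4.68 TPM in the TSC1 replicates. Its groups did not overlap, and its log2 fold change of -1.41 did not pass the test (adjusted p = 0.121). Sall1, which maintains microglial identity and is also a gene of neural progenitors, was between 11.2 and 17.96 TPM in WT and between 9.68 and 11.3 TPM in TSC1 (log2 fold change -0.42, adjusted p = 0.203).

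C1q starts a cascade, and several other components were at low levels as mRNA in this tissue. C1ra and C1s, which encode the proteases that bind C1q, were between 0.290 and 0.750 TPM and between 0.370 and 1.30 TPM over the 6 samples, and C3, the central component, was between 0.18 and 0.42 TPM, all too low to be tested. The C1q chains were between 32.8 and 64.1 TPM in the same samples. C4b, a later classical component, was at 1.18, 0.640 and 0.450 TPM in WT replicates 1, 2 and 3 and at 1.69, 1.12 and 1.25 TPM in the TSC1 replicates (log2 fold change 0.82, adjusted p = 0.239, edgeR). C4a and C4b are near-identical copies, so their reads may have been split between them. Of 39 complement genes, receptors and regulators analysed, 23 were tested, 7 with a higher and 16 with a lower value in TSC1, none passed, and the median log2 fold change was -0.05. Srpx2, a neuronal protein that binds C1q, had a large change for this list (log2 fold change -0.79, adjusted p = 0.289), with groups that did not overlap. C1ra, C1s and C3 are named here after their levels were seen.

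Of 14 tested genes that mark phagocytic microglia or those of axon tracts in the newborn brain, 10 had a higher and 4 a lower value in TSC1, none passed the test, and the median log2 fold change was 0.13. Gpnmb, a lysosomal glycoprotein, was at 1.47, 0.690 and 1.25 TPM in WT replicates 1, 2 and 3 and at 3.32, 1.61 and 1.23 TPM in the TSC1 replicates (log2 fold change 0.83, adjusted p = 0.320, edgeR). Mertk, a receptor for dying cells that astrocytes also express, was at 3.49, 2.47 and 1.98 TPM in WT and at 4.98, 3.62 and 4.29 TPM in TSC1 (log2 fold change 0.67, adjusted p = 0.155). All TSC1 samples of Mertk were above all WT samples. Axl, a receptor of the same family named after its value was seen, lay the other way, between 15.6 and 16.8 TPM in WT and between 12.2 and 13.8 TPM in TSC1 (log2 fold change -0.32, adjusted p = 0.104). Igf1, a growth factor also named after its value was seen, had a log2 fold change of -0.53 (adjusted p = 0.312). Lpl and Spp1, likewise named afterwards, had positive log2 fold changes, that of Spp1 through 1 sample alone. Lpl was between 52.6 and 78.5 TPM in WT and between 90.2 and 108.5 TPM in TSC1 (log2 fold change 0.58, adjusted p = 0.0540, edgeR). These levels were above those of Csf1r in every sample (15.1 to 26.8 TPM). Which cells of the tissue gave the Lpl mRNA was not tested. Spp1 had a log2 fold change of 0.66 (adjusted p = 0.486), with 28.3, 27.1 and 102.8 TPM in TSC1 replicates 1, 2 and 3 and 29.8 to 37.2 TPM in WT. TSC1 replicates 1 and 2 were thus below all WT samples for Spp1, and only TSC1 replicate 3 was above them.

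**Figure D4:**
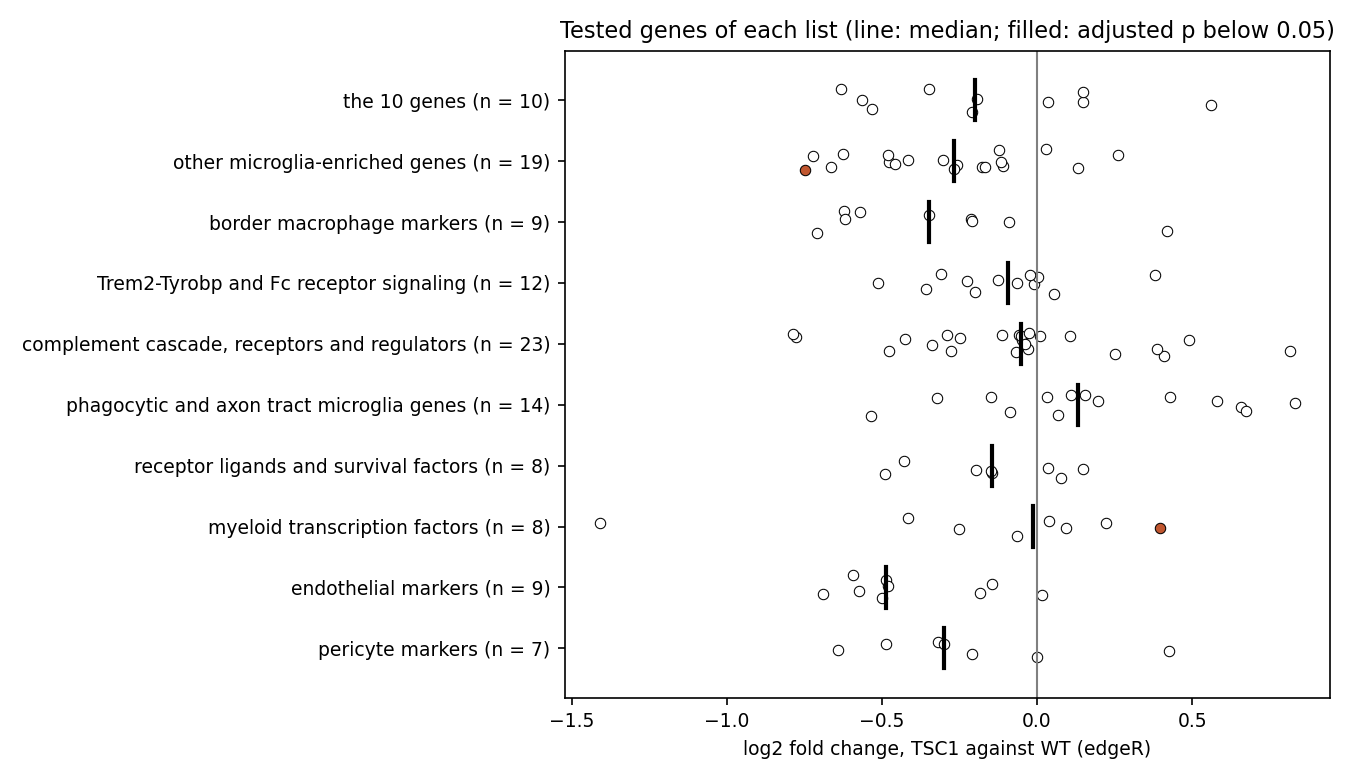
Log2 fold change of TSC1 against WT (edgeR) for every tested gene of the 10-gene set and of 9 other gene lists, with vertical lines for the medians and filled points for adjusted p below 0.05. The medians run from -0.49 for the endothelial markers to 0.13 for the phagocytic genes, against -0.0027 for all genes, and Fcrls and Mef2c are the filled points.

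Other cell types in the tissue also varied between the groups. Of 9 border macrophage markers tested, 8 had a lower and 1 a higher value in TSC1, none passed, and the median log2 fold change was -0.35. Their summed level was between 92.7 and 154.2 TPM in WT and between 59.0 and 120.6 TPM in TSC1, and those of highest TPM, Pf4 and Mrc1, had log2 fold changes of -0.62 and -0.62 (adjusted p = 0.363 and 0.236, edgeR). Of 9 endothelial markers, 8 had lower values in TSC1 and none passed, with a median of -0.49, and their summed level was between 219.3 and 289.4 TPM in WT and between 187.4 and 219.0 TPM in TSC1. At an unadjusted p below 0.05, 6 of the 9 endothelial markers were lower, against 8.93% of all genes. Cldn5 and Esam, those of highest TPM, had log2 fold changes of -0.49 (adjusted p = 0.0670) and -0.18 (adjusted p = 0.414), and Tie1, named after its value was seen, had the largest change (-0.69, adjusted p = 0.0577). Of 7 pericyte markers, 5 had lower values, and those of highest TPM, Rgs5 and Vtn, had log2 fold changes of -0.32 (adjusted p = 0.122) and -0.64 (adjusted p = 0.0805). The summed level of the erythroid genes was between 1695 and 5569 TPM in WT and between 1293 and 1783 TPM in TSC1, and the 5 of them that were tested all had lower values. Of 7 lymphocyte markers, 5, among them Cd3e and Nkg7, were listed at 0 in every sample, and Ccr2, a monocyte receptor, was at or below 0.240 TPM. The part of the macrophage, vessel and blood cell markers in the lower values of Csf1r, Cx3cr1 and P2ry12 was not tested.

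Over the 6 samples, the mean standardised log2 CPM of the 10 genes was followed most closely by Tyrobp among the members (Pearson r = 0.929) and least by Aif1 (r = -0.22), with Cx3cr1 at 0.394 and the other 7 between 0.668 and 0.829. Each member is part of that mean, which raises its r. The 10 genes outside the set with the most similar pattern were C030030A07Rik, Plau, Aoah, Foxf2, Cnbd2, Sash1, Shc1, Ramp2, Adam12 and Sft2d2, with r between 0.982 and 0.991. They were picked as the highest among all genes tested, so their r is high by selection and cannot be compared with that of the members. Plau encodes urokinase, Foxf2 is a transcription factor of pericytes and Ramp2 is an endothelial receptor subunit. These correlations describe 6 samples whose depth and tissue makeup, such as the choroid plexus sum above, also varied.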

How the data were processed

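RNA of 6 telencephalon samples was sequenced in paired-end runs after TruSeq RNA v2 library preparation. Reads were trimmed by the authors and mapped to mm10 with MapSplice2, and RSEM 1.2.12 gave the abundance of each gene. The deposited expected count is RSEM's estimate of the reads of a gene, without normalization. The deposited TPM is the gene's share of transcripts after division by effective length, scaled by RSEM to a fixed sum, and the deposited FPKM, not used here, divides the count by length and depth. The deposited tables also hold transcript lengths, and length minus effective length was 45.8 to 49.7 bases in WT and 55.1 to 57.6 bases in TSC1. The release of the RefSeq transcripts is not given in the sources used here.

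Expected counts were rounded and tested with edgeR 4.0.16 (quasi-likelihood, TMM, filterByExpr, Benjamini-Hochberg adjustment over all 13969 genes). The common biological coefficient of variation was 0.1125. DESeq2 1.42.0, limma 3.58.1 on log2(TPM + 1) and log2(TPM + 0.1), other normalizations, other filters, effective length offsets, a replicate block, left-out samples and the study's permutation-based method served as alternatives. The code was tested on simulated data. Named genes were the 10 members, Tsc1, Csf1, Il34, Cx3cl1 and Fcer1g, of each pathway list every gene called and the 2 with the largest change, and of each other cell type list every gene called and the 2 with the highest TPM. Those of neurons, astrocytes and oligodendrocytes stand in the closing section, and some genes that this rule names are not reported here. The members and lists were chosen with earlier results of these data known. Intervals come from the edgeR fit, in which the spread between the 3 samples a group is moderated over all genes tested. All samples of a group differed from each other by more than sampling noise.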

Additional observations from a re-analysis of the deposited data

How the results depend on the processing

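Under 18 alternatives, 1 of them added after the data were seen, the number of the 10 genes called stayed at 0, except that the permutation-based method called 2, or 3 with the lower fold cutoff, and their median log2 fold change ran from -0.35 to -0.11, always within 0.22 (the SD between replicates of their mean log2 CPM) of the value reported. Csf1r, Cx3cr1, P2ry12, Aif1, Trem2 and Tyrobp kept their direction under every alternative that gave a value. The lowest adjusted p over the alternatives was 0.0517 for P2ry12, 0.0598 for Cx3cr1 and 0.115 for Csf1r. The permutation-based method, whose p is not adjusted over genes, also called Csf1 and Fcer1g, both lower in TSC1. The small positive values of C1qa, C1qb, C1qc and Il34 reversed under some alternatives, as did the larger 0.56 of Tmem119. Without WT replicate 3, C1qc was -0.085 and Il34 was -0.044. Without TSC1 replicate 1, Tmem119 was -0.085, C1qa was -0.016 and C1qc was -0.13. Without replicate 3 of both groups, C1qa was -0.012, C1qb was -0.091, C1qc was -0.064 and Il34 was -0.051. With the permutation-based method, at either cutoff, C1qc was -0.12. With 1 sample left out in turn, Tmem119 ran from -0.085 to 0.90, C1qa from -0.016 to 0.32, C1qb from 0.019 to 0.31, C1qc from -0.13 to 0.16, Trem2 from -0.35 to -0.027, Tyrobp from -0.36 to -0.053, Csf1r from -0.43 to -0.21, Cx3cr1 from -0.66 to -0.41, P2ry12 from -0.86 to -0.42, Aif1 from -0.95 to -0.33, Tsc1 from -0.79 to -0.40 and Il34 from -0.044 to 0.39. The count of all genes called, 212, became 636 with DESeq2, 346 without a filter, 434 without replicate 3 of both groups, 1008 with the permutation-based method (1355 with the lower cutoff) and between 29 and 799 with 1 sample left out. The 2 genes called in the pathway lists became 4 with DESeq2, 4 without replicate 3 of both groups, 10 with the permutation-based method (14 with the lower cutoff) and between 0 and 6 with 1 sample left out. With a replicate block, 551 genes and 5 pathway genes were called and none of the 10; samples with the same number did not all deviate together (r = 0.267, -0.13 and 0.318), so the numbers were not taken as pairs. Among the 10 genes, Aif1 rested on the fewest counts, 8 to 21. The causes of these shifts were not tested.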

Other observations

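Antigen presentation genes of the MHC class II group, which macrophages and dendritic cells express, were at or below 10.2 TPM in every sample, and the 1 of 7 that was tested was not called. Cd74, the invariant chain, was at 2.35, 1.29 and 1.46 TPM in WT replicates 1, 2 and 3 and at 0.790, 0.670 and 1.02 TPM in the TSC1 replicates. H2-Ab1 was at 1.81, 1.19 and 0.820 TPM in WT and at 0.160, 0.00 and 0.450 TPM in TSC1, and both genes lay under the count filter, so these are values with no call. H2-Eb1 overlapped between the groups, at 0.110, 1.40 and 0.460 TPM in WT and at 0.460, 0.480 and 0.850 TPM in TSC1. H2-DMa, the only gene of the list that was tested, had a log2 fold change of -0.34 (adjusted p = 0.434, edgeR). Among the inflammatory genes, Il6 was at or below 0.180 TPM and Tnf at or below 0.360 TPM in every sample, Il1a was between 0.0900 and 1.26 TPM, Ccl12 was between 1.07 and 3.87 TPM, and Nfkbia, an NF-kappaB inhibitor and target, was between 28.6 and 39.2 TPM (log2 fold change 0.22, adjusted p = 0.380). The granulocyte gene S100a9 was at 3.14, 7.57 and 6.87 TPM in WT and at 9.44, 15.0 and 8.31 TPM in TSC1, and Ly6c1, a monocyte and endothelial gene, was between 10.3 and 12.1 TPM in WT and between 13.8 and 15.7 TPM in TSC1, without passing the test (adjusted p = 0.299 and 0.253). Cd74, H2-Ab1, H2-Eb1, Il6, Tnf, Il1a and Ccl12 were named after their values were seen.

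Among the neural lists, Gfap rose in TSC1 (log2 fold change 1.09, adjusted p = 0.00683, edgeR), and Gad1 and Bcl11b fell by 0.83 and 0.56 on the log2 scale (adjusted p = 0.0479 for each). Without WT replicate 2 or TSC1 replicate 1, Gfap missed the threshold (adjusted p = 0.0562 and 0.0620). Gad1 missed it without any 1 sample other than TSC1 replicate 3 (adjusted p between 0.0528 and 0.201), and Bcl11b without WT replicate 2, WT replicate 3, TSC1 replicate 1 or TSC1 replicate 2 (between 0.162 and 0.209) and with upper-quartile normalization (0.0502). The leading markers of astrocytes and radial glia, Fabp7 and Slc1a3, had log2 fold changes of -0.13 and -0.31, those of the oligodendrocyte lineage, Olig1 and Pdgfra, -0.38 and -0.12, and those of neurons, Tubb3 and Stmn2, -0.06 and 0.08, and none of these 6 passed the test.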
